A study of Mus musculus with 6 samples.

Results

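Whsc1l1, Cdk12, Klhdc10, Rbck1, Ecm1 and Bgn are 6 mouse genes picked because transcripts of the same gene moved apart between vehicle and PTH in these libraries, leaving aside genes of the NFAT pathway. They were taken from the deposited transcript table by symbol, and all of their transcripts were kept, which gave 47 of the 37478 transcripts and 6 of the 13659 symbols in the table. Since the contrast of PTH against vehicle chose these genes, every value of theirs in that contrast is a description and carries no test. The study treated osteoblast-like cells of the MC3T3-E1 line (subclone 4, from mouse calvaria), with vehicle or with PTH(1-34), a peptide from the amino terminus of parathyroid hormone and an agonist of its receptor. Each group held 3 RNA-seq libraries of cells kept in serum-supplemented medium, numbered 1 to 3 in both groups. The time of treatment is 30 min in the sample characteristics and 2 h in the treatment protocol, so the time behind each value is uncertain. The line is a clone held in culture. Whether the libraries of a group stem from separate cultures is not in the labels, and the spread behind each p-value may thus be technical.

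Most mammalian genes give several transcripts, which arise from different start sites, splice sites and 3' ends, and these can encode the same protein, a shorter protein or none. A retained-intron transcript keeps an intron that the coding transcripts splice out. In osteoblasts PTH acts mainly through cyclic AMP and protein kinase A and changes transcription within minutes to hours, so newly made and processed transcripts can both be present in such cells.

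Values are FPKM, read fragments per transcript length and per library total. The share of a transcript is its FPKM as a percentage of the summed FPKM of its gene in the same library, so it is a share per length and not a share of reads, and it does not depend on the scaling between libraries. The gaining and the losing transcript of a gene are those with the largest gain and the largest loss of mean share from vehicle to PTH. Transcripts that overlap share reads, and the FPKM of each is a model-based division of them. All 47 transcripts have an entry in GENCODE M21 (GRCm38, which is the mm10 assembly), and its transcript names are used below. The transcripts Nsd3-210, Cdk12-205 and Rbck1-204 of that annotation are not among the listed transcripts, so they enter no share or gene sum.

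The depth of the libraries is unknown, since FPKM carry no read counts, and FPKM totals ranged from 618221 to 853916. All 7 osteoblast markers examined were listed, with a summed level of 828 to 913 FPKM under vehicle and 843 to 957 FPKM under PTH. Within that list the transcription factors Sp7 and Dlx5 were wholly lower with PTH, the transcription factor Runx2 and Bglap, which encodes osteocalcin, were wholly higher, and Alpl, Ibsp and Spp1 overlapped. Of 3 chondrocyte markers 2 were listed, Sox9 and Col2a1, with a summed level of 9.77 to 13.7 FPKM under vehicle and 25.1 to 31.0 FPKM under PTH. Sox9 was wholly higher with PTH and Col2a1 overlapped. The adipocyte list held only Cebpa (1 of 3 listed, 4.84 to 6.54 FPKM under vehicle and 4.70 to 5.11 under PTH), the muscle list only Des (1 of 3, 0.619 to 1.51 and 0.430 to 1.05 FPKM) and the leukocyte list only Cd68 (1 of 3, below 1 FPKM), and the endothelial list had no member in the table. The part of these markers in the isoform differences was not tested, and in bulk RNA fewer cells of a type and less RNA per cell cannot be told apart.

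Across the 47 transcripts, the share of 14 was higher in every PTH library than in every vehicle library and the share of 16 was lower, while 17 overlapped. Over all 30679 transcripts of genes with at least 2 transcripts and a mean sum of at least 1 FPKM, those proportions were 10.4% and 11.1%. At least 1 share wholly higher and 1 wholly lower was found in 5 of the 6 genes, Bgn being the exception, and in 25.6% of the 7138 genes of that kind. When the FPKM themselves were asked to move in opposite directions, Whsc1l1, Cdk12 and Klhdc10 did so and Rbck1, Ecm1 and Bgn did not, against 7.65% of all such genes. None of the 6 had both a gain and a loss of share of at least 10 percentage points, which 3.43% of genes had. Because the genes were chosen on this contrast, nothing is read from these proportions. The working description of opposed isoforms therefore held for Whsc1l1, Cdk12 and Klhdc10 in level, for Rbck1 and Ecm1 in share only, and for Bgn in neither sense between its main transcripts.

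**Figure D1:**
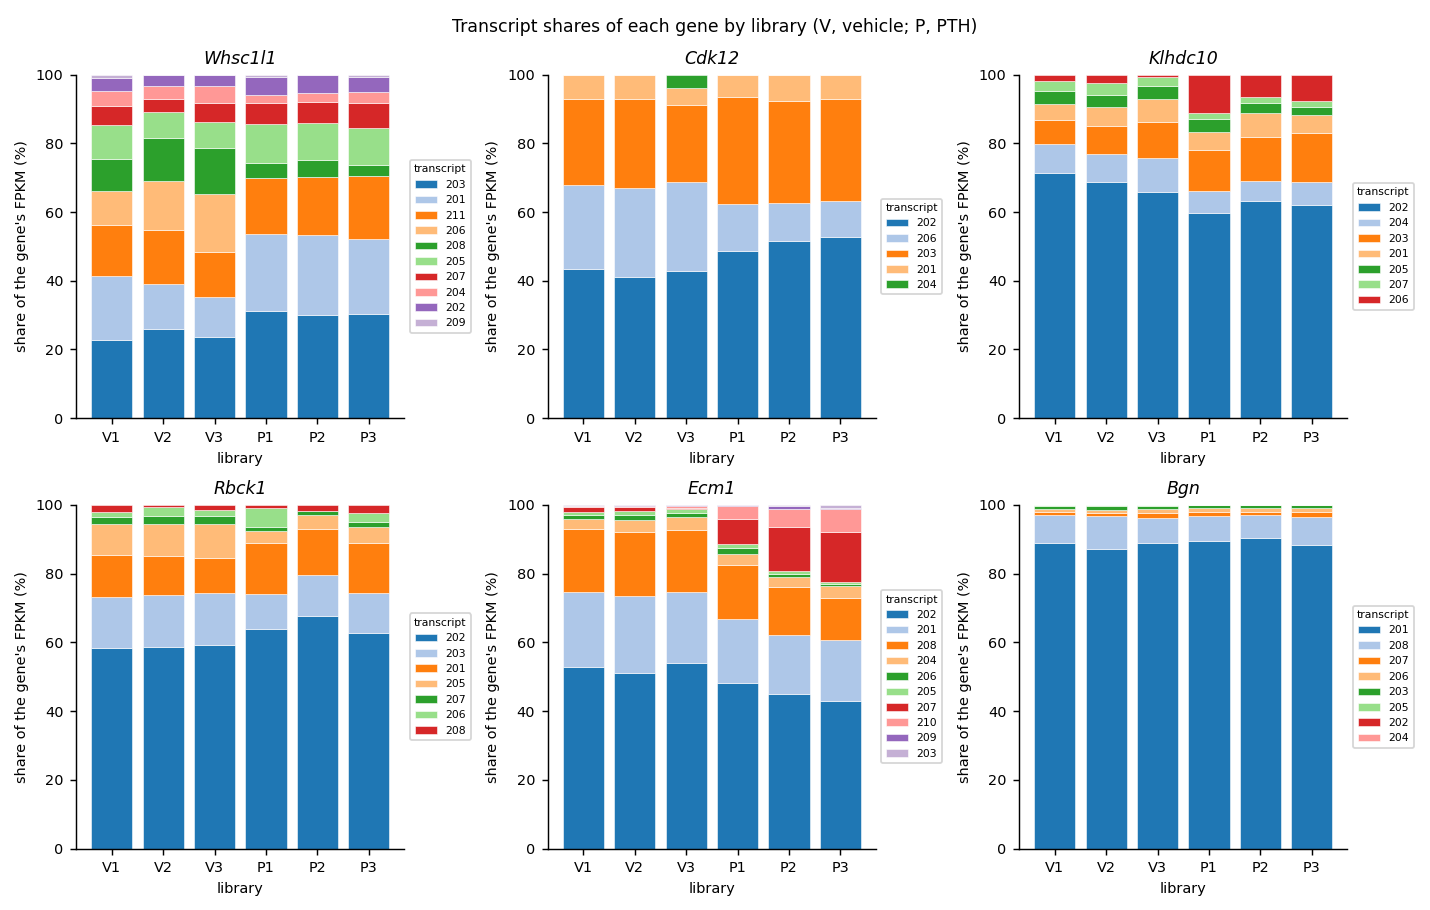
Share of each transcript in the summed FPKM of its gene (percent, vertical axis) in vehicle libraries V1 to V3 and PTH libraries P1 to P3, with 1 panel per gene and transcripts named by their GENCODE number. Cdk12-206 shrinks from 25.3% to 11.8% on average and Ecm1-207 and Ecm1-210 appear in the PTH libraries, while the bars of Bgn look alike in both groups.

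Whsc1l1, named Nsd3 in GENCODE (chr8:25601601-25719667, plus strand), encodes a histone H3 lysine 36 methyltransferase. In human cells its long form carries the catalytic SET domain, and a short form lacks that domain. The gene sum was 18.8, 19.3 and 18.7 FPKM in vehicle libraries 1, 2 and 3 and 29.0, 29.6 and 30.3 FPKM in PTH libraries 1, 2 and 3. Every PTH library was above every vehicle library, with a ratio of means of 1.57. Beside this difference in the sum, the composition shifted by 22.7 percentage points (the gains in mean share, summed over all transcripts that gained), a larger shift than in 98.7% of the 7138 genes. Pairs of libraries from the same group differed in composition by at most 12.4 points and pairs from different groups by at least 16.7 points.

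The gaining transcript Nsd3-201 was 3.53, 2.55 and 2.20 FPKM under vehicle and 6.49, 6.86 and 6.60 FPKM under PTH. The losing transcript Nsd3-206 stood at 1.89, 2.77 and 3.14 FPKM under vehicle and at 0.00780, 0.000789 and 0.00611 FPKM under PTH. The groups did not overlap for either, and the share of Nsd3-206 went from 13.7% ± 3.45 to 0.0166% ± 0.0125 (SD, n = 3 libraries per group here and below) while that of Nsd3-201 went from 14.6% ± 3.67 to 22.4% ± 0.686. These 2 transcripts carry the same coding sequence of 1446 codons and differ at their start, that of Nsd3-201 lying 38683 bases downstream of the most upstream annotated start of the gene. Nsd3-206 has 0 exonic bases of its own, and 95.5% of its exonic bases lie in Nsd3-201, so the division between them rests on few bases. Their sum was 5.41, 5.33 and 5.33 FPKM under vehicle and 6.50, 6.86 and 6.61 FPKM under PTH, a narrow band in each group. Counted together, the long coding form was 1.24 times higher with PTH, and its share was lower, 28.3% ± 0.63 against 22.5% ± 0.68.

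The short coding forms behaved in the same paired way. Nsd3-211 was 2.78, 3.0 and 2.47 FPKM under vehicle and 4.69, 4.99 and 5.55 FPKM under PTH, and Nsd3-208 was 1.73, 2.43 and 2.47 FPKM under vehicle and 1.27, 1.5 and 1.01 FPKM under PTH. Nsd3-211 was wholly higher and Nsd3-208 wholly lower with PTH, yet both encode the same 655 residues, and together they went from 4.96 ± 0.462 to 6.34 ± 0.323 FPKM. Nsd3-203, which encodes 621 residues and ends within an intron of the long form, was 4.27, 5.0 and 4.39 FPKM under vehicle and 9.07, 8.93 and 9.17 FPKM under PTH. It was the most abundant transcript of the gene in each library, and its share went from 24.0% ± 1.67 to 30.6% ± 0.63. Nsd3-205, a retained-intron transcript that begins in the same intron (chr8:25673435-25675696), had a share of 10.0%, 7.54% and 7.60% under vehicle and 11.4%, 10.6% and 10.7% under PTH. It was thus wholly higher in share, and its FPKM was 2.03 times higher.

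Of the other transcripts, Nsd3-207 (542 residues) and the retained-intron transcript Nsd3-202 were wholly higher in FPKM and in share, Nsd3-204 (1397 residues) overlapped in FPKM, and Nsd3-209 stayed at or below 0.235 FPKM in every library. When transcripts with the same coding sequence were merged, the shift of the gene was 12.2 points in place of 22.7. All 4 short coding forms together were 10.4 ± 0.690 FPKM under vehicle and 17.3 ± 0.599 FPKM under PTH, 1.66 times higher, and took 55.1% ± 2.92 and 58.5% ± 0.73 of the gene. The long coding form and the form of 655 residues part after a shared coding exon, at intron chr8:25675743-25678715 in Nsd3-201 and chr8:25675743-25676702 in Nsd3-208 (plus strand). Nsd3-203 and Nsd3-207 end before that exon. The bases at the border show where the coding sequences separate. The bases up to the border are in lower case and the first coding bases of the next exon are in capitals, read from GRCm38.
Nsd3-201: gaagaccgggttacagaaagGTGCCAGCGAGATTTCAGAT
Nsd3-208: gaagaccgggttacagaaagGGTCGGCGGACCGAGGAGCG

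**Figure D2:**
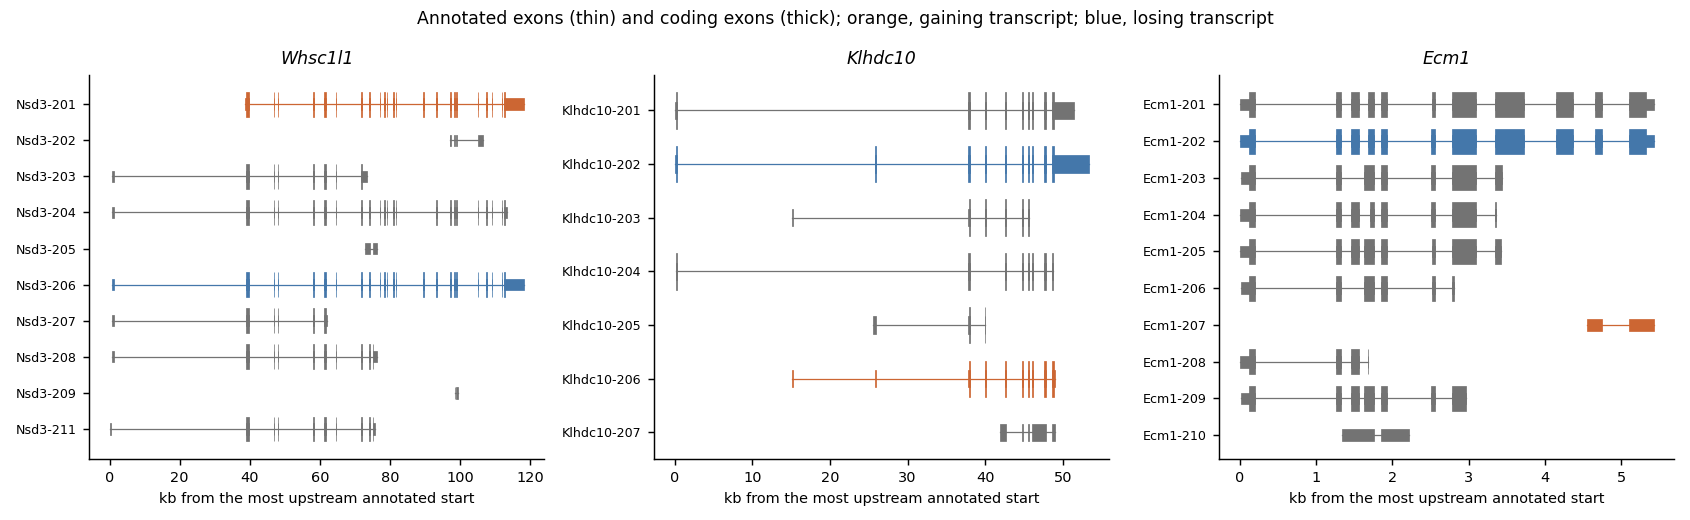
Annotated exons of Whsc1l1, Klhdc10 and Ecm1 along the gene (horizontal axis, kb from the most upstream annotated start), 1 line per transcript, with coding exons drawn thicker, the gaining transcript in orange and the losing transcript in blue. Nsd3-201 and Nsd3-206 differ only at the start, Klhdc10-206 begins in the long intron after the start of Klhdc10-202, and Ecm1-207 covers only the last exons of the gene.

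Cdk12 (chr11:98203059-98278504, plus strand) encodes a kinase that pairs with cyclin K and phosphorylates the carboxy-terminal domain of RNA polymerase II during elongation. Its gene sum was 13.6, 14.0 and 14.2 FPKM under vehicle and 16.1, 16.6 and 16.4 FPKM under PTH, without overlap and with a ratio of means of 1.17. Its composition shifted by 14.9 points, more than in 94.9% of genes, with at most 5.76 points between libraries of the same group and at least 11.7 points between groups. The gaining transcript Cdk12-202 was 5.89, 5.77 and 6.12 FPKM under vehicle and 7.82, 8.55 and 8.61 FPKM under PTH. The other nearly identical coding transcript, Cdk12-203, was 3.36, 3.63 and 3.18 FPKM under vehicle and 5.01, 4.91 and 4.85 FPKM under PTH. Both were wholly higher with PTH, and together they made up 66.8% ± 1.43 of the gene under vehicle and 81.2% ± 1.17 under PTH.

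The losing transcript Cdk12-206, annotated as a processed transcript with no coding sequence, was 3.33, 3.61 and 3.66 FPKM under vehicle and 2.19, 1.83 and 1.76 FPKM under PTH. All of its PTH values lay below its vehicle values, and its share went from 25.3% ± 0.66 to 11.8% ± 1.58. It joins exons of the coding forms to exons beyond their end, and 44.8% of its exonic bases are in no other transcript of the gene. Its FPKM difference of -1.61 was the balance of 0.44 FPKM that went with the larger gene sum and -2.05 FPKM that went with the lower share, each computed at the mean of the groups. Cdk12-201 (1258 residues) was wholly higher in FPKM and overlapped in share, and Cdk12-204 was at or near 0 in 5 libraries and at 0.561 FPKM in vehicle library 3.

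The coding forms Cdk12-202 (1484 residues) and Cdk12-203 (1475 residues) differ at the acceptor site of their last exon, where Cdk12-202 holds 27 more bases. The borders are printed to show that difference and the join of Cdk12-206, with the bases of the upstream exon in lower case and those of the downstream exon in capitals. The introns removed are chr11:98245670-98249682, chr11:98245670-98249709 and chr11:98250101-98263469 (GRCm38, plus strand).
Cdk12-202: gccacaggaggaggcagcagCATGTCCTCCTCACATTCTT
Cdk12-203: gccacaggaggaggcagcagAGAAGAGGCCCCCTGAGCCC
Cdk12-206: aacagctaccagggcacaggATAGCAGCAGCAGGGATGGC

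Klhdc10 (chr6:30401868-30455179, plus strand) encodes a kelch-repeat substrate receptor of a CUL2 ubiquitin ligase, described as an activator of the stress kinase ASK1. Its gene sum was 79.9, 80.5 and 86.3 FPKM under vehicle and 80.0, 76.7 and 78.9 FPKM under PTH, so the groups overlapped. The log2 difference of -0.07 turned to 0.058 with libraries centred on the median gene and to 0.027 on a TPM scale. Under an almost level sum, the composition shifted by 11.4 points, more than in 89.1% of genes, with at most 7.29 points within groups and at least 8.40 points between them.

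The main transcript Klhdc10-202 (439 residues), which was the losing one, was 57.1, 55.3 and 56.8 FPKM under vehicle and 47.8, 48.5 and 48.9 FPKM under PTH. The gaining transcript Klhdc10-206 (299 residues) was 1.60, 2.10 and 0.513 FPKM under vehicle and 8.89, 5.07 and 6.17 FPKM under PTH. The groups were apart for both, and shares went from 68.7% ± 2.83 to 61.7% ± 1.74 for Klhdc10-202 and from 1.73% ± 1.03 to 8.51% ± 2.34 for Klhdc10-206. Klhdc10-203, an incompletely annotated coding transcript, had a share of 7.02%, 8.13% and 10.5% under vehicle and 12%, 12.6% and 14.3% under PTH. It shares with Klhdc10-206 a start region 15168 to 15177 bases downstream of the most upstream start, inside the intron that follows the coding start of the longer forms. Together these downstream-start transcripts were 7.21, 8.65 and 9.54 FPKM under vehicle and 18.5, 14.7 and 17.4 FPKM under PTH. Their level was 1.99 times higher, while the 3 coding transcripts with the upstream start went from 68.4 ± 2.52 to 58.0 ± 0.726 FPKM. Klhdc10-206 has 9 exonic bases and 1 intron found in no other listed transcript, so its level rests on little sequence of its own.

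Among the rest, Klhdc10-204 and the retained-intron transcript Klhdc10-207 were wholly lower, the latter with 2.37 ± 0.221 FPKM under vehicle and 1.33 ± 0.165 FPKM under PTH, and Klhdc10-201 and Klhdc10-205 overlapped. Klhdc10-201 (410 residues) differs from Klhdc10-202 by skipping a coding exon, and its share was 5.67% ± 1.17 under vehicle and 5.85% ± 1.01 under PTH. The coding borders after the upstream coding exon are shown for these forms, with the next exon in capitals. The introns are chr6:30402151-30427708 in Klhdc10-202 and chr6:30402151-30439643 in Klhdc10-201 (GRCm38, plus strand).
Klhdc10-202: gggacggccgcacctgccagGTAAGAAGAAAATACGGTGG
Klhdc10-201: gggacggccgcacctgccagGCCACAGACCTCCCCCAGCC

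**Figure D3:**
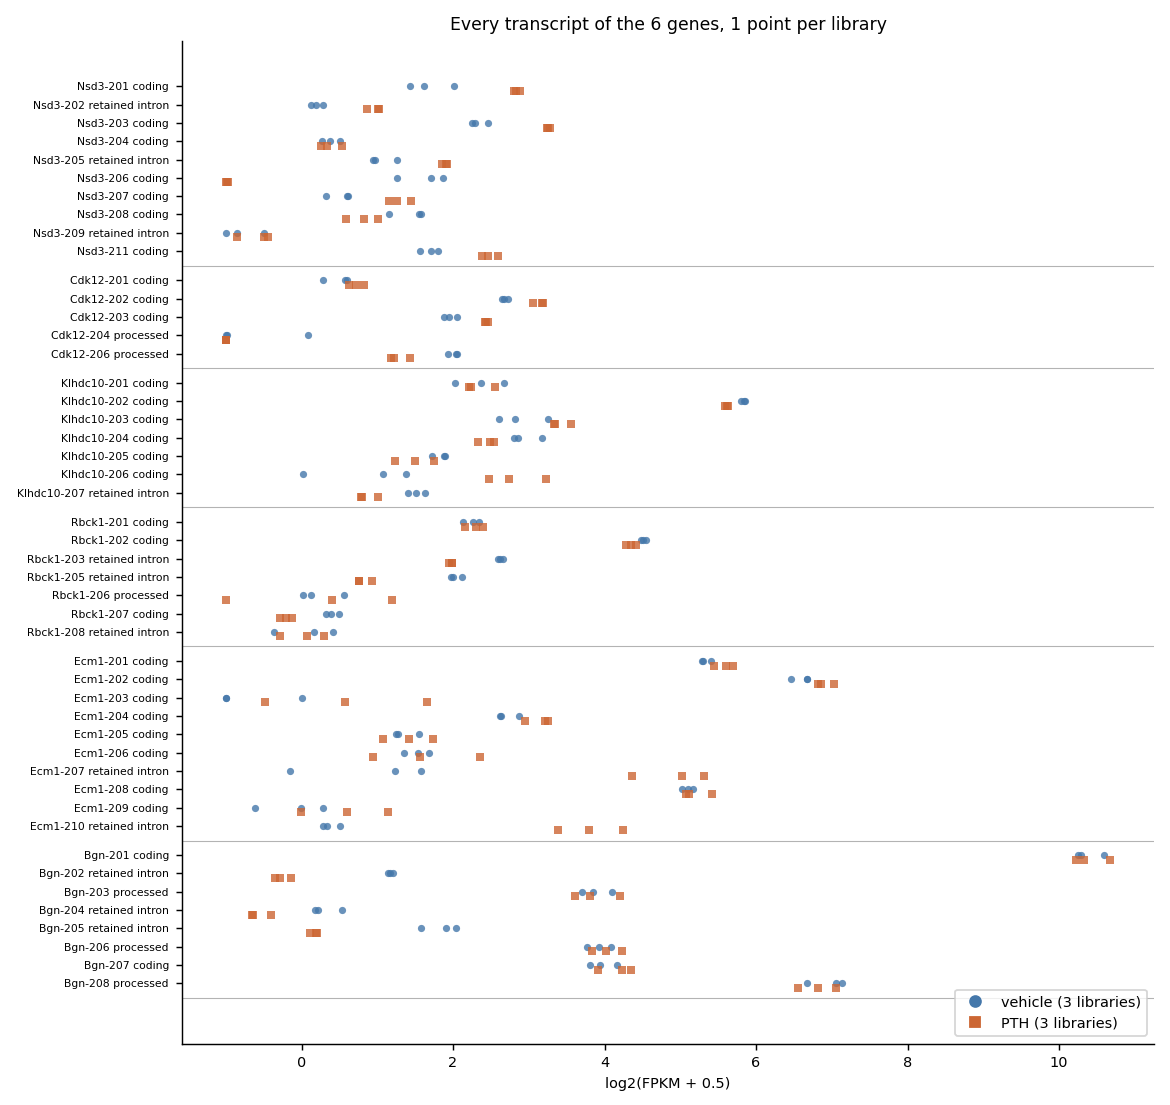
Level of each of the 47 transcripts on the scale log2(FPKM + 0.5) (horizontal axis), with 1 point per library, vehicle as blue circles and PTH as orange squares. Nsd3-206 sits at the left edge in all 3 PTH libraries, and Ecm1-207 and Ecm1-210 show the widest gaps in the other direction.

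Rbck1 (chr2:152316334-152332653, minus strand) encodes HOIL-1, which with HOIP and SHARPIN forms the complex that builds linear ubiquitin chains in TNF receptor signalling. Its gene sum was 38.1, 37.1 and 38.5 FPKM under vehicle and 32.5, 29.4 and 30.3 FPKM under PTH. All PTH libraries were lower, with a log2 difference of -0.30. The composition shifted by 10.1 points, more than in 85.8% of genes, with at most 6.64 points within groups and at least 8.55 points between groups.

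The gaining transcript by share was Rbck1-202, which encodes the full 508 residues and stood at 22.3, 21.8 and 22.8 FPKM under vehicle and 20.8, 19.9 and 19.0 FPKM under PTH. Its FPKM was thus lower in each PTH library, while its share went from 58.8% ± 0.41 to 64.8% ± 2.62. Rbck1-201, with another first exon and the same coding sequence, had a share of 12%, 11.6% and 10.1% under vehicle and 14.6%, 13.4% and 14.6% under PTH, and its FPKM overlapped. The 2 together went from 26.6 ± 0.397 to 24.3 ± 1.08 FPKM and from 70.1% ± 0.61 to 79.0% ± 1.96 of the gene. The largest losses of share were those of 2 retained-intron transcripts. Rbck1-205, the losing transcript, was 3.51, 3.42 and 3.84 FPKM under vehicle and 1.19, 1.20 and 1.40 FPKM under PTH. Rbck1-203 was 5.65, 5.52 and 5.83 FPKM under vehicle and 3.35, 3.44 and 3.47 FPKM under PTH. Neither overlapped between groups, and with the overlapping Rbck1-208 the retained-intron class went from 25.9% ± 0.99 to 17.0% ± 1.84 of the gene. Rbck1-207, a short incomplete coding transcript, was wholly lower and Rbck1-206 overlapped, at 0.514 to 0.979 FPKM under vehicle and 3.71e-06 to 1.78 FPKM under PTH.

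Rbck1-203 retains the whole 934-base intron chr2:152323333-152324266, and Rbck1-205 begins inside the 900-base intron chr2:152322272-152323171 and keeps its last 726 bases (GRCm38, minus strand). The borders are given to mark what separates these transcripts from the coding ones, with intron bases in capitals and coding exon bases in lower case. Both introns end in AG, and the intron in Rbck1-203 begins with GT.
Rbck1-203 intron start: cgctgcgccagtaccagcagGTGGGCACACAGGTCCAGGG
Rbck1-203 intron end: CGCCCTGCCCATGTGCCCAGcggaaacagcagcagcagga
Rbck1-205 intron end: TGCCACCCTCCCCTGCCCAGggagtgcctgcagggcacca

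Ecm1 (chr3:95734147-95739569, minus strand) encodes extracellular matrix protein 1, a secreted glycoprotein that binds perlecan and inhibits the matrix protease MMP9. Its gene sum was 192, 172 and 188 FPKM under vehicle and 272, 249 and 270.0 FPKM under PTH, without overlap and with a log2 difference of 0.52. The composition shifted by 16.1 points, more than in 95.9% of genes. The largest difference within a group was 11.3 points and the smallest between groups 9.87 points, so these overlapped.

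The gaining transcript Ecm1-207, annotated as a retained intron, was 2.49, 1.85 and 0.401 FPKM under vehicle and 20.2, 31.9 and 39.3 FPKM under PTH. The second retained-intron transcript, Ecm1-210, was 0.764, 0.714 and 0.920 FPKM under vehicle and 9.95, 13.4 and 18.4 FPKM under PTH. Both were far apart between groups and varied most within PTH, where the lowest and the highest library of Ecm1-207 were 20.2 and 39.3 FPKM. The ratio of means was 19.3 for Ecm1-207 and 17.4 for Ecm1-210, the widest upward gaps among the 47 transcripts. Of the difference of 28.9 FPKM in Ecm1-207, 23.9 FPKM went with its share and 4.96 FPKM with the gene sum.

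The losing transcript by share, Ecm1-202 (559 residues), was 101, 87.9 and 101 FPKM under vehicle and 131, 112 and 116 FPKM under PTH. Its FPKM was therefore wholly higher with PTH while its share went from 52.7% ± 1.43 to 45.3% ± 2.56. Its FPKM difference of 22.6 was made of 39.1 FPKM that went with the gene sum and -16.5 FPKM that went with the share. Ecm1-201 (558 residues) had a share of 21.7%, 22.4% and 20.7% under vehicle and 18.9%, 17.2% and 17.8% under PTH, and its FPKM was wholly higher. Ecm1-208, an incomplete coding transcript, had a share of 18.5%, 18.6% and 18.0% under vehicle and 15.6%, 13.8% and 12.3% under PTH, and its FPKM overlapped. Ecm1-202 has 1 exonic base of its own and Ecm1-201 and Ecm1-208 have 0, so the division among them rests on little sequence. Ecm1-201 and Ecm1-202 together took 74.3% ± 0.59 of the gene under vehicle and 63.3% ± 3.22 under PTH. No transcript of Ecm1 was wholly lower in FPKM. The other 5, all incompletely annotated coding transcripts, stayed at or below 9.02 FPKM, and among them Ecm1-204 was wholly higher. The coding transcripts together went from 181 ± 10.7 to 219 ± 19.9 FPKM, a log2 difference of 0.27, and the retained-intron transcripts from 2.38 ± 0.980 to 44.4 ± 13.8 FPKM.

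Ecm1-210 keeps the 123-base intron chr3:95737889-95738011 (minus strand, GRCm38), which Ecm1-201, Ecm1-202 and Ecm1-208 splice out between coding exons. It also begins inside the preceding 122-base intron and keeps the last 107 bases of that. Its last exon extends beyond the coding exon that it overlaps. Ecm1-207 begins within a 288-base intron near the end of the gene and keeps its last 108 bases. Of the exonic bases of Ecm1-207, 20.8% are in no other transcript of the gene, and of Ecm1-210, 58.8%. Those of Ecm1-207 are the 108 intron bases, and the microRNA gene Mir7014 (chr3:95734911-95734973, same strand) lies within them. Its part in the level of Ecm1-207 was not tested. The intron kept by Ecm1-210 is printed because the gap between the groups for this transcript is among the widest of the 47, with the whole intron in capitals between coding exon bases.
Ecm1-210: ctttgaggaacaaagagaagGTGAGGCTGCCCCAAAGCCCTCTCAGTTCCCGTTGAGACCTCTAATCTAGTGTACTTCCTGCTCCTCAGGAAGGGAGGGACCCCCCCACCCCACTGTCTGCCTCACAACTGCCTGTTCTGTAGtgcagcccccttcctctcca

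Bgn (chrX:73483602-73495933, plus strand) encodes biglycan, a small leucine-rich proteoglycan of bone matrix, and mice without it have low bone mass. It was by far the most abundant of the 6 genes, with a sum of 1733, 1401 and 1401 FPKM under vehicle and 1825, 1423 and 1351 FPKM under PTH. The groups overlapped, and library 1 was the highest in both. Within library numbers the difference of PTH from vehicle was 92.2, 21.8 and -50.2 FPKM. The composition shifted by 1.21 points, more than in 17.5% of genes, and differences within groups (up to 2.35 points) overlapped with those between groups (from 0.719 points).

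Bgn-201, which encodes 369 residues and had the largest mean gain, took 89.0%, 87.2% and 89.0% of the gene under vehicle and 89.6%, 90.4% and 88.3% under PTH. Bgn-208, a processed transcript whose exonic bases all lie in Bgn-201 and which had the largest mean loss, took 8.07%, 9.48% and 7.24% under vehicle and 7.28%, 6.54% and 8.29% under PTH. Both overlapped between groups, in share and in FPKM, as did Bgn-203, Bgn-206 and Bgn-207. What differed was a small retained-intron fraction. Bgn-202 was 1.74, 1.80 and 1.71 FPKM under vehicle and 0.408, 0.321 and 0.285 FPKM under PTH, Bgn-205 was 2.48, 3.25 and 3.61 FPKM under vehicle and 0.581, 0.647 and 0.638 FPKM under PTH, and Bgn-204 reached at most 0.943 FPKM. Each of the 3 was wholly lower with PTH. Their sum was 4.93 times lower, 5.61 ± 0.689 against 1.14 ± 0.0840 FPKM, and it made up 0.378% ± 0.0857 and 0.0754% ± 0.0124 of the gene. Bgn-204 and Bgn-205 both keep the 517-base intron chrX:73491431-73491947 (plus strand, GRCm38), whose borders are shown with the intron in capitals and coding exon bases in lower case.
Bgn intron start: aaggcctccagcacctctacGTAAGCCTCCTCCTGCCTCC
Bgn intron end: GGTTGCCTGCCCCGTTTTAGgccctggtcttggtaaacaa

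**Figure D4:**
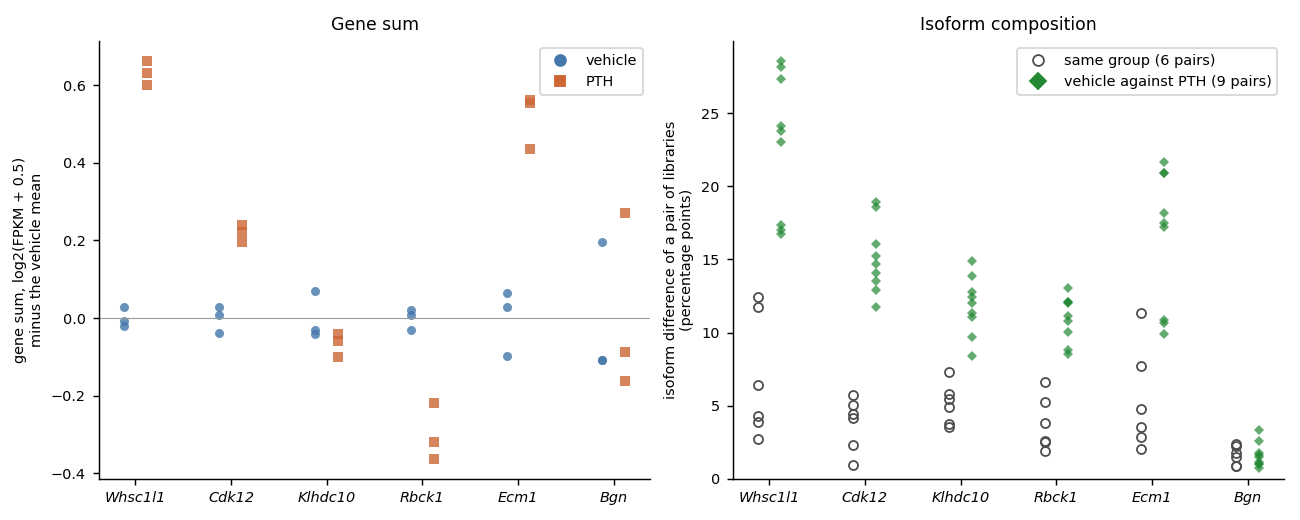
Left, gene sum in each library as log2(FPKM + 0.5) minus the vehicle mean; right, difference in isoform composition between pairs of libraries in percentage points, for pairs of the same group (open circles) and of different groups (green diamonds). Klhdc10 and Bgn overlap in the sum on the left, and Ecm1 and Bgn are the genes whose circles and diamonds overlap on the right.

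Transcripts of the same annotated class lay in both directions. Retained-intron transcripts were wholly higher in share in Whsc1l1 (Nsd3-202 and Nsd3-205) and Ecm1 (Ecm1-207 and Ecm1-210) and wholly lower in Klhdc10 (Klhdc10-207), Rbck1 (Rbck1-203 and Rbck1-205) and Bgn (Bgn-202, Bgn-204 and Bgn-205). Over the 6893 retained-intron transcripts in genes with at least 2 transcripts, 9.95% were wholly higher and 14.7% wholly lower in share. Outside the 6 genes, retained-intron transcripts were also set against the summed FPKM of protein-coding, retained-intron and processed transcripts. Their proportion was 4.57%, 4.57% and 4.79% under vehicle and 4.24%, 4.46% and 4.53% under PTH, slightly lower in the PTH libraries. Transcripts of other annotated classes were left out of that total. The gaining and the losing transcript encode the same protein in Whsc1l1 and proteins of different length in Klhdc10, and at least 1 of the pair has no coding sequence in Cdk12, Rbck1, Ecm1 and Bgn.

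By the smallest root mean square difference in the share of the gaining transcript over the 6 libraries, among 233 genes with wholly separate gains and losses of share of at least 10 points (those counted above, less symbols that start with Mir, Snor or Gm and a digit, end in Rik or begin with a digit), the most similar pattern to Whsc1l1 was that of Cggbp1, at 2.86 points. It was Arid5a for Klhdc10, at 2.40 points, and Armc6 for Ecm1, at 2.26 points. The nearest were less close for Cdk12 (Abcc10, 4.72 points), Rbck1 (Slc39a3, 5.09 points) and Bgn (Tspan6, 5.48 points). None of the 6 genes meets the 10-point condition set on the candidates, so how close a match could be was limited in advance. Similarity here covers the share of the gaining transcript alone, not the gene sum or the other transcripts.

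RefSeq promoters (GRCm38.p6, from 250 bases before to 50 after the start) were matched for 5 of the 6 genes, 6 promoters in all, with no entry for Whsc1l1. Promoters were searched on both strands for the cyclic AMP response element TGACGTCA, for its core TGACG, which lies within it, and for the AP-1 motif TGAGTCA, since PTH acts through cyclic AMP and induces AP-1 factors. The Ecm1 promoter held TGAGTCA at 64 bases before the start, and no other match was found in these 6 windows. That start is the most upstream one of Ecm1. The retained-intron transcripts Ecm1-207 and Ecm1-210 begin 4551 and 1346 bases downstream of it, and a part of the motif in their levels was not tested. Of 32851 RefSeq promoters, 1.79% held TGACGTCA, 20.8% TGACG and 5.20% TGAGTCA. The Ecm1 match lies in chr3:95739520-95739819 (minus strand) and is shown with its neighbouring bases, the motif in capitals.
Ecm1 promoter: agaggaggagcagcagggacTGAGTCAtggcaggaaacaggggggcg

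The genes that work with the 6 were examined as lists of partners, tested on gene sums with limma (log2(FPKM + 0.5), two-sided, unpaired, Benjamini-Hochberg adjustment over 11628 genes, threshold 0.05). Of 74 partner genes tested, 9 rose and 34 fell with PTH. Over all tested genes 10.8% rose and 41.0% fell, and the median log2 difference was -0.15, which centring each library on its median gene brought to -0.03. With centring 11 partner genes rose and 17 fell, against 18.3% and 24.0% of all genes. On a TPM scale 6 rose and 1 fell, and the share of all genes called on that scale was not counted. A single microRNA symbol, Mir5105, held 19.0% to 39.6% of the FPKM total of a library and varied within both groups, so the TPM scale varied with it. The number of falls thus depended on the scaling. The number of rises did so too. Among partners of Klhdc10 it was 1 on the TPM scale in place of 2, and among those of Rbck1 it was 1 in place of 3. Of the 8 named genes that fell, only B3galt6 lost its call with centring. On the TPM scale the 1 remaining fall lay in the list of Rbck1, so every named fall in the other lists lost its call. All 15 named genes that passed had libraries that did not overlap between the groups. They were named for large changes past the threshold, so nothing is read from this. Over all 11628 tested genes, the sum was wholly higher with PTH in 13.1% and wholly lower in 47.5%.

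Among 15 partners of Whsc1l1 in chromatin, 1 rose and 11 fell, with a median of -0.26, and 6 fell with centring. The gene that rose was Brd2, a bromodomain protein that binds acetylated histones, from 102 ± 4.56 to 138 ± 13 FPKM (log2 difference 0.43 ± 0.08 SE, limma adjusted p = 0.00357). The related methyltransferase Nsd1 fell by 0.43 (SE 0.06, limma adjusted p = 0.00110) and the lysine 36 demethylase Kdm4a by 0.46 (SE 0.04, limma adjusted p = 0.00028). Among 16 elongation partners of Cdk12, 3 rose and 10 fell, with a median of -0.18, and 5 fell with centring. The 3 that rose were Hexim1, the inhibitor of the elongation kinase P-TEFb, from 9.0 ± 0.762 to 14.8 ± 1.25 FPKM, Ccnt1, its cyclin, from 10.1 ± 1.05 to 14.6 ± 0.673 FPKM, and Polr2a, the largest subunit of RNA polymerase II, from 30.1 ± 0.991 to 41.7 ± 2.81 FPKM. Their log2 differences were 0.68, 0.52 and 0.46, with limma adjusted p of 0.000841, 0.00208 and 0.00102.

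Among 13 partners of Klhdc10 in CUL2 ligases and ASK1 regulation, 2 rose and 4 fell, and the median was -0.08, while with centring 3 rose and 1 fell. On the TPM scale 1 rose, so at least 1 of the 2 rises named below lost its call there. The number that fell was 2 without PTH library 2, vehicle library 1 or vehicle library 3, and 1 without PTH library 3. Cul2, the scaffold of the ligase, rose from 17.2 ± 0.390 to 20.9 ± 0.990 FPKM (log2 difference 0.28, limma adjusted p = 0.00393). Of the FEM1 substrate receptors, Fem1b rose by 0.53 (SE 0.06, limma adjusted p = 0.000486) and Fem1a fell by 0.45 (SE 0.08, limma adjusted p = 0.00329). Among 13 genes of linear ubiquitin chains, 3 rose and 4 fell, with a median of -0.15, and 2 fell with centring. The number that rose was 1 with each vehicle library left out in turn, and the number that fell was 2 without PTH library 3 or vehicle library 2. Traf2, an adaptor of the TNF receptor complex, fell from 19.0 ± 0.772 to 9.50 ± 0.613 FPKM, a log2 difference of -0.97 (limma adjusted p = 6.56e-05). Tradd, another adaptor of that complex, fell by 0.38 on the log2 scale (SE 0.05, limma adjusted p = 0.000948), and Birc3, a ubiquitin ligase of the same complex, rose by 0.57 (SE 0.12, limma adjusted p = 0.00754).

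For Ecm1 only 2 matrix partners were tested. Hspg2, which encodes perlecan, was 68.3 ± 8.35 FPKM under vehicle and 69.2 ± 5.78 FPKM under PTH (limma adjusted p = 0.876), and Mmp9 was 2.63 ± 0.374 and 2.44 ± 0.648 FPKM (limma adjusted p = 0.637). Neither passed the test. Among 15 partners of Bgn, proteoglycans of its family and enzymes of the glycosaminoglycan linker, 5 fell and 10 did not pass, with a median of -0.08. With centring 3 fell, and with the replicate block 1 rose and 7 fell. The linker enzymes Xylt2 and B4galt7 fell by 0.35 (SE 0.05, limma adjusted p = 0.00173) and by 0.39 (SE 0.06, limma adjusted p = 0.00153). B3galt6, which also builds the linker, fell from 1.35 ± 0.163 to 0.951 ± 0.0869 FPKM (limma adjusted p = 0.0322), a call that was lost with centring (limma adjusted p = 0.139).

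**Figure D5:**
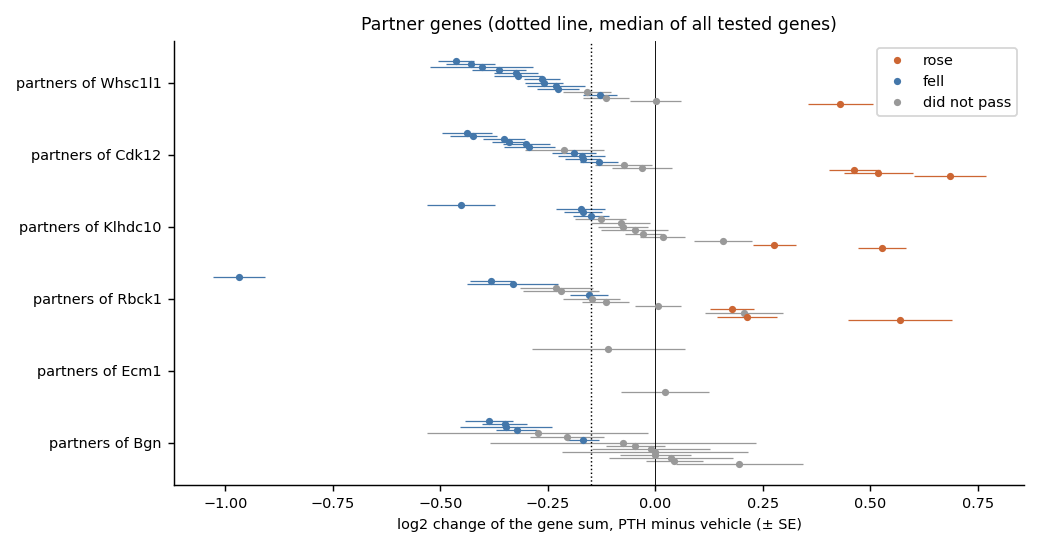
Log2 difference of the gene sum, PTH minus vehicle, with its standard error (horizontal axis) for the 74 tested partner genes, grouped by the gene they work with; orange points rose, blue points fell and grey points did not pass. The dotted line marks the median of all tested genes at -0.15, and Traf2 is the lowest point and Hexim1 the highest.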

How the data were processed

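Stranded, paired-end libraries were prepared from TRIzol-extracted RNA, per the labels' protocols. The authors deposited 1 FPKM value per transcript and library, estimated with Cufflinks on mm10 per the submitters' processing notes. Which aligner, versions and annotation release they used is not given in the sources used here. Libraries were grouped by their titles, and the depth behind the values is unknown. The authors' own test columns were not used.

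Transcript shares were computed per library from the deposited FPKM, and gene sums over the transcripts listed under a symbol. The 6 genes and the partner lists were chosen with earlier results of these data known. Gene sums of at least 1 FPKM on average (11628 genes) were tested with limma 3.58.1 in R 4.3.3 (a linear model per gene, moderated with an intensity trend) on log2(FPKM + 0.5), a scale that understates the change of low genes, at an adjusted p of 0.05. The fit was tested on simulated data. Tables and figures were made with Python 3.11.15, pandas 2.3.3, numpy 2.4.6 and matplotlib 3.10.9. Named among partners were the genes that passed with the largest change, up to 3 per list, or, in a list where none did, the 2 most abundant. A transcript was given by library where it gained or lost most or held at least 10% of its gene in either group.

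Vehicle and PTH libraries of the same number deviated together from their group means (r = 0.42, 0.28 and 0.28, each over 0.1), and different numbers did not. Deviations within a group cancel out, so the values for different numbers follow in part from the others and add no separate evidence. Going by the values for the same number, the numbers may pair the libraries, which no label states. Counts and p-values nonetheless come from the fit without pairing, except where the replicate block is named. Alternatives were other pseudocounts and filters, centring, TPM, a replicate block, the omission of each library, and, chosen after seeing the data, the merging of transcripts with the same coding sequence. Some items are not reported here.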

Additional observations from a re-analysis of the deposited data

How the results depend on the processing

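Of 392 recomputed values, 341 were scored as kept, 12 moved further, 6 changed sign, 28 were weaker and 5 stronger. Shares and gene sums were scored as kept where they moved by less than the spread between replicates. For counts of partner genes, kept meant equal to the main count or within a fixed ratio of it. By that rule 24 falls in place of 34 were scored as kept, so the 341 does not measure unchanged calls. Partner genes that fell (34) numbered 17 with centring, 1 on the TPM scale and 24 to 31 without 1 library, and those that rose (9) numbered 11, 6 and 7 to 9. With the replicate block, 12 rose and 40 fell, with no change of call in a named partner gene, and with block and centring 16 rose and 20 fell. The share of all tested genes called was counted only for the main fit and with centring. Counts in the other settings thus have no background beside them. Log2 differences of gene sums with centring and on the TPM scale were 0.76 and 0.73 for Whsc1l1, 0.34 and 0.31 for Cdk12, -0.18 and -0.21 for Rbck1, 0.64 and 0.61 for Ecm1 and, with a change of sign, 0.058 and 0.027 for Klhdc10. For Bgn it was -0.12 without PTH library 1 and -0.04 without vehicle library 2 or 3, within a range of -0.12 to 0.12. With 0.5 FPKM added to every transcript, the share differences were -11.6 points for Cdk12-206 and -4.71 points for Rbck1-205. With transcripts of the same coding sequence merged, the share difference was -5.84 points for Nsd3-201 with Nsd3-206, which turns the sign for Nsd3-201, and 8.98 points for Rbck1-202 with Rbck1-201. The cause of these changes was not tested. The unknown depth limits all statements on transcripts near 0, and the division of reads among overlapping transcripts cannot be checked from FPKM.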
